A study of Homo sapiens with 4 samples.

Results

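The 10 genes described here are the regulators of the mitochondrial apoptosis pathway of the BCL2 family, taken by name in 3 roles from the 56271 genes of the count table: the anti-apoptotic BCL2, BCL2L1 and MCL1, the BH3-only genes BCL2L11, BBC3, PMAIP1, BID and BAD, and the effectors BAX and BAK1. They were measured by poly-A RNA-seq in SKBR3, a HER2-positive breast cancer cell line. The 2 groups compared had 2 libraries each. The eGFP control cells carried a lentiviral vector with green fluorescent protein alone. The VIRMA-overexpressing cells carried the same vector with HA-tagged full-length VIRMA and the fluorescent protein, and in both the ubiquitin C promoter drove the insert. VIRMA is a scaffold subunit of the nuclear m6A writer, the enzyme complex that methylates adenosine in messenger RNA. The transduced cells were sorted for fluorescence and expanded. The libraries are called biological duplicates, and whether those of a group came from separate transductions was not stated, so the p-values measure only the spread between these libraries, which may be technical. The culture text given with these samples describes a low-oxygen chamber and protein lysis, and the oxygen level of the cells used for RNA was not clear from it. Proteins were not measured here.

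BCL2 family proteins decide whether the outer mitochondrial membrane stays intact. BAX and BAK1 form the pores that release cytochrome c. BCL2, BCL2L1 (BCL-XL) and MCL1 hold the effectors in check, and the BH3-only proteins carry stress signals to the family by binding the groove of the anti-apoptotic proteins or by activating the effectors directly. BH3-only genes are largely controlled at the level of their RNA, by factors such as FOXO and the stress-induced factor CHOP, whereas BAD and BID are mostly switched by phosphorylation and cleavage.

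What the members share is the BH3 segment, the short helix through which they bind each other. It is shown here because members of all 3 roles carry it, so by itself it does not tell the roles apart. Its core is a leucine, 3 residues of any kind, a glycine and an aspartate, and it was searched in the coding bases of the canonical GENCODE transcript of each member (GRCh38). The core was found in 8 of the 10 members, and the other two, BBC3 and BAD, had alanine and serine in place of the glycine. In each member the segment lies within 1 coding exon. Each line gives 30 coding bases, 5′ to 3′ on the coding strand, with the codons of the leucine, the small residue and the aspartate in capitals.
BCL2, chr18:63318355-63318384, minus strand: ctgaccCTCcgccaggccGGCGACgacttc
BCL2L1, chr20:31721928-31721957, minus strand: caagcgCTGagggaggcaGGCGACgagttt
MCL1, chr1:150578871-150578900, minus strand: gagaccTTAcgacgggttGGGGATggcgtg
BCL2L11, chr2:111150097-111150126, plus strand: caagagTTGcggcgtattGGAGACgagttt
BBC3, chr19:47226585-47226614, minus strand: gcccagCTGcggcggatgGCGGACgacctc
PMAIP1, chr18:59902667-59902696, plus strand: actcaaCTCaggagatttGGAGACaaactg
BID, chr22:17739421-17739450, minus strand: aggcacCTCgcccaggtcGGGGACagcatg
BAD, chr11:64271628-64271657, minus strand: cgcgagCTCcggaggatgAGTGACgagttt
BAX, chr19:48955781-48955810, plus strand: gagtgtCTCaagcgcatcGGGGACgaactg
BAK1, chr6:33575393-33575422, minus strand: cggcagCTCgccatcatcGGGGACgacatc
The aspartate codon was the same in all but MCL1, whereas the leucine codon differed among the members.

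The libraries held 81446932 to 86375474 counts. VIRMA, listed under its older symbol KIAA1429, had 710 and 682 counts in the eGFP control and 3437 and 3460 in the VIRMA-overexpressing libraries, a log2 fold change of 2.29 ± 0.069 (SE). The count does not separate the transgene from the endogenous gene. The cells expressed all 10 of the SKBR3 markers examined, with ERBB2 between 651 and 701 RPKM (read counts divided by exonic length and by the library total). Of these markers 4 were lower and 3 higher in both VIRMA-overexpressing libraries, among them KRT8 at 70.2%, EPCAM at 76.1% and SPDEF at 81.9% of the control level, and KRT7 at 141% and GRB7 at 135%. Most markers of other cells were low, but they were not equal between the groups. HBB reached 21.2 and 15.2 RPKM in the control libraries. All 7 erythroid genes were higher in both control libraries, with summed levels of 23.3 and 16.9 RPKM against 0.475 and 0.379, and HBB had 2137 and 1543 counts against 0 and 0. Of 7 leukocyte genes, 5 were higher in both control libraries, with sums of 6.44 and 5.71 RPKM against 3.39 and 3.46, of which CSF1R made most. PTPRC, which defines leukocytes, had at most 23 counts and MS4A1 had 0 in every library. Of 5 fibroblast genes 2 were higher in both control libraries, with sums from 0.891 to 1.37 RPKM, and 4 endothelial genes, with sums from 0.948 to 1.45 RPKM, went 2 each way. The part of these markers in the results below was not tested.

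The members moved in both directions, with the BH3-only genes split between them. Genes were tested when they exceeded 1 RPKM in at least 2 libraries, which 12205 genes did, and were called at an adjusted p below 0.05 (edgeR quasi-likelihood test). Of the 10 members, 9 were tested and BCL2 lay below the filter. MCL1, BBC3 and PMAIP1 rose (3 of 9), beside 35.1% of all tested genes. BID, BAD, BAX and BAK1 fell (4 of 9), beside 35.9% of all tested genes. BCL2L1 and BCL2L11 did not pass the test. In RNA from whole cultures, fewer cells that express a gene and less RNA per cell cannot be told apart. With a log2 fold change above 1 asked for as well, PMAIP1 remained, beside 4.52% of the tested genes in that direction, but it had passed the filter only through the group where it was high. No tested member was below −1, beside 2.93%. The counts of called members are close to these shares, since 71% of the tested genes were called in one direction or the other. The median log2 fold change was 0.02 over the 9 members and 0.01 over all tested genes.

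**Figure D1:**
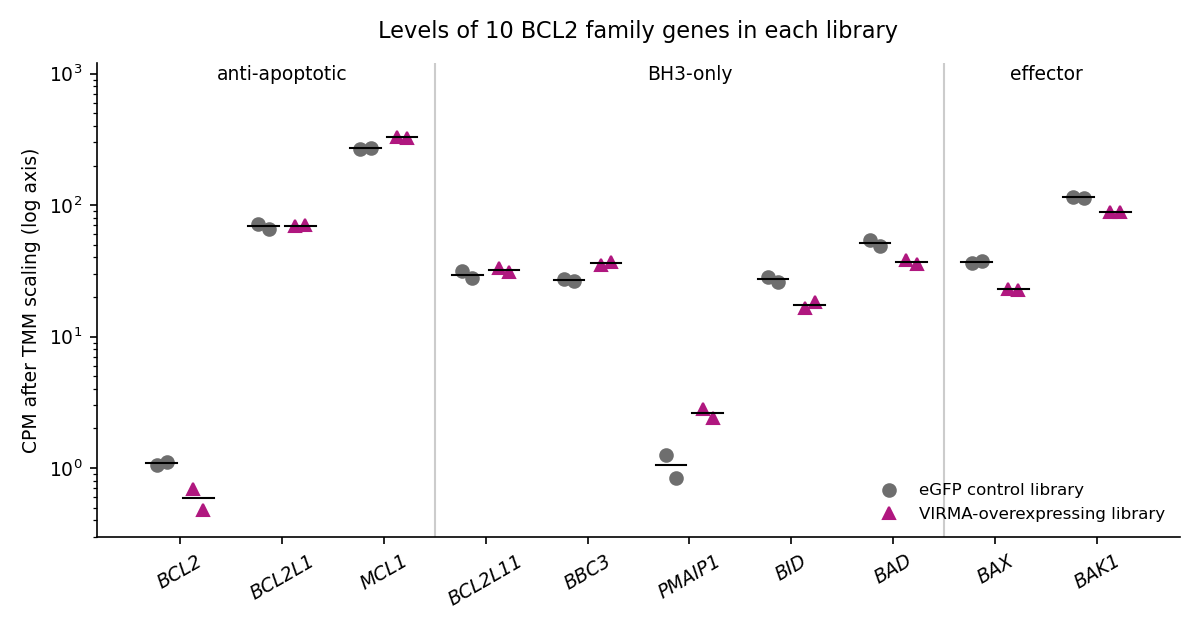
CPM, the counts scaled to library size after TMM normalization (log axis), of the 10 members in the 2 eGFP control libraries (grey circles) and the 2 VIRMA-overexpressing libraries (magenta triangles), with black lines at the group means. MCL1, BBC3 and PMAIP1 lie higher and BCL2, BID, BAD, BAX and BAK1 lower in both VIRMA-overexpressing libraries, while the groups overlap for BCL2L1 and BCL2L11.

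Among the anti-apoptotic members, MCL1 was both the most abundant and the one that rose. MCL1 is a short-lived protein that sequesters BIM, NOXA and BAK1. It had 21908 and 22702 counts in the eGFP control and 27992 and 26842 in the VIRMA-overexpressing libraries. Both VIRMA-overexpressing libraries lay above both controls. Its level per length went from 59.4 ± 1.01 to 76.3 ± 1.28 RPKM (SD, n = 2), and the log2 fold change of the fit was 0.28 ± 0.030 (SE), with an adjusted p of 4.7e-10.

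BCL2L1 encodes BCL-XL, the longer-lived guardian of the same membrane. Its counts were 5931 and 5484 in the control and 5873 and 5839 in the VIRMA-overexpressing libraries. The groups overlapped, and the log2 fold change was 0.02 with a 95% interval from −0.070 to 0.103 (adjusted p = 0.74). Its sign turned under other filters on low counts (−0.01 to −0.03) and without the second control library (−0.04), and with scaling by library totals it passed the threshold (0.10). The gene makes a long, protective and a short, killing splice form, and counts per gene do not separate them. Of its 3314 exonic bases, 1424 are shared with ABALON on the opposite strand, which held 9 to 21 counts per library. The strand setting of the counting was not stated, so the assignment of reads in these bases is uncertain.

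BCL2, the founding member, was barely expressed. It had 87 and 92 counts in the control and 59 and 40 in the VIRMA-overexpressing libraries, which is 0.087 and 0.091 RPKM against 0.060 and 0.042 RPKM. The VIRMA-overexpressing libraries lay below both controls. In the fit with no filter on low counts the log2 fold change was −0.91 ± 0.33 (SE), with an adjusted p of 0.024, beside 15.3% of the genes of that fit called lower.

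Ordered by level per length in the eGFP control, MCL1 stood above BCL2L1 at 20.1 ± 1.27 RPKM (SD, n = 2) and BCL2 at 0.089 ± 0.0028 RPKM (SD, n = 2). The order was the same in the VIRMA-overexpressing cells. MCL1 made up 73.6% and 75.8% of the summed level of these members in the control libraries and 78.3% and 77.7% in the VIRMA-overexpressing ones. The sum leaves out the anti-apoptotic relative BCL2L2, described below. BCL2L2 was at 7.56 and 7.80 RPKM in the control and 12.6 and 12.8 RPKM in the VIRMA-overexpressing libraries. With BCL2L2 in the sum, the shares of MCL1 in the groups would overlap.

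The BH3-only genes went apart. PMAIP1 encodes NOXA, which binds MCL1 selectively. It had the largest fold change of the members and, after BCL2, the fewest counts. Its counts were 104 and 70 in the eGFP control and 240 and 198 in the VIRMA-overexpressing libraries. Both VIRMA-overexpressing libraries lay above both controls, and the controls were further apart from each other than for any other member. The log2 fold change was 1.31 ± 0.24 (SE), with an adjusted p of 1.2e-05. PMAIP1 exceeded 1 RPKM only in the VIRMA-overexpressing libraries (1.29 and 1.09 RPKM against 0.545 and 0.363), so it was tested only because that group was high. With no filter on low counts its log2 fold change was 1.28 ± 0.24 (SE), with an adjusted p of 3.9e-07, beside 14.4% of the genes of that fit called higher. Without 1 library at a time it ranged from 1.05 to 1.62.

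BBC3 encodes PUMA, which binds every anti-apoptotic protein of the family. It had 2262 and 2182 counts in the control and 2992 and 3040 in the VIRMA-overexpressing libraries. The groups did not overlap, and the libraries within a group were close. The log2 fold change was 0.42 ± 0.058 (SE), 134% of the control level, with an adjusted p of 5.4e-08. BCL2L11 encodes BIM, an activator of both effectors. Its counts were 2577 and 2315 in the control and 2828 and 2545 in the VIRMA-overexpressing libraries, so the groups overlapped. The log2 fold change was 0.11 with a 95% interval from −0.012 to 0.240 (adjusted p = 0.098), and it passed the threshold when the counts were scaled by library totals (0.20) or upper quartiles (0.19). BIM too has splice forms of unequal strength that were not separated.

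BID links the death receptors to the mitochondria once caspase 8 has cut it. It had 2344 and 2171 counts in the control and 1400 and 1523 in the VIRMA-overexpressing libraries, which lay well below both controls. The log2 fold change was −0.65 ± 0.070 (SE), 63.9% of the control level, with an adjusted p of 3.1e-10. BAD is the sensitizer that survival kinases hold in the cytosol by phosphorylation. It had 4456 and 4024 counts in the control and 3243 and 2948 in the VIRMA-overexpressing libraries. The log2 fold change was −0.47 ± 0.053 (SE), 72.0% of the control level, with an adjusted p of 5.8e-10. Of the 1708 exonic bases of BAD, 404 are shared with GPR137 on the opposite strand, whose counts were 5443 and 5397 in the control and 4136 and 4197 in the VIRMA-overexpressing libraries. The strand setting of the counting was not stated, so how reads in the shared bases were assigned is uncertain.

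By level per length the BH3-only members in the eGFP control stood in the order BAD (28.9 RPKM), BBC3 (8.14 RPKM), BID (5.91 RPKM), BCL2L11 (4.28 RPKM) and PMAIP1 (0.454 RPKM). In the VIRMA-overexpressing cells BAD (22.0 RPKM) and BBC3 (11.5 RPKM) kept the first places among the members, and BCL2L11 (4.91 RPKM) stood above BID (4.00 RPKM). BIK, a BH3-only gene outside the members, stood above BBC3 in both groups. It was at 13.6 RPKM in the control and 14.1 RPKM in the VIRMA-overexpressing cells. For BID and BCL2L11 the libraries did not overlap in either group. In the control BID was at 6.17 and 5.65 RPKM and BCL2L11 at 4.53 and 4.03 RPKM. In the VIRMA-overexpressing cells BID was at 3.80 and 4.21 RPKM and BCL2L11 at 5.12 and 4.69 RPKM. This change of order depends on the exonic lengths used, 4446 bases for BID and 6658 for BCL2L11. With the canonical transcripts of 2177 and 5098 bases BID would stay above BCL2L11 in every library. BBC3 was 1.35 and 1.41 times as abundant as BID in the control libraries and 2.99 and 2.79 times in the VIRMA-overexpressing ones.

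Both effectors fell. BAX, which waits in the cytosol and moves to the mitochondria on activation, had 3010 and 3098 counts in the control and 1967 and 1872 in the VIRMA-overexpressing libraries. The libraries of a group were within a few percent of each other, and the groups were far apart. Its log2 fold change was −0.69 ± 0.059 (SE), 62.0% of the control level, with an adjusted p of 8.4e-13. BAK1, which sits in the outer membrane from the start, had 9500 and 9470 counts in the control and 7564 and 7300 in the VIRMA-overexpressing libraries. Its log2 fold change was −0.37 ± 0.036 (SE), 77.3% of the control level, with an adjusted p of 2.5e-11. The near-copy BAK1P1 held 16 to 38 counts per library, and reads that match both equally cannot be assigned to either. BAK1 was the more abundant effector, at 3.69 and 3.58 times the level of BAX per length in the control libraries and 4.50 and 4.56 times in the VIRMA-overexpressing ones. The size of this ratio depends on the length used. The exonic lengths were 2587 bases for BAX and 2212 for BAK1, but the canonical transcripts have 795 and 2170 bases. With the canonical lengths the gap would be much smaller.

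**Figure D2:**
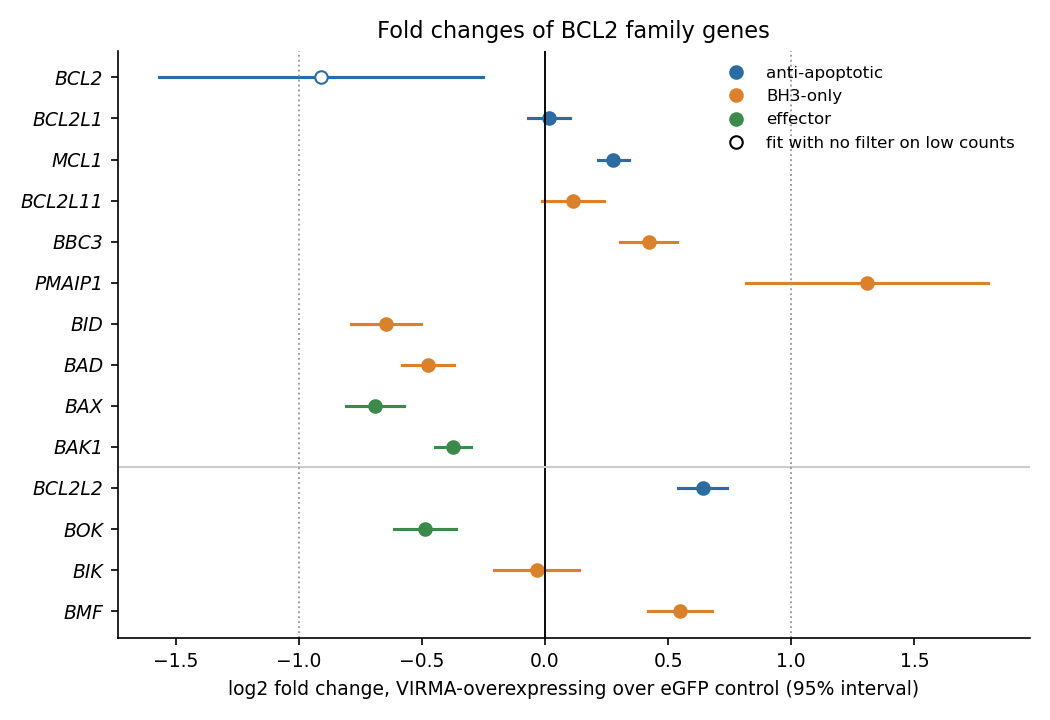
Log2 fold change of VIRMA-overexpressing over eGFP control cells with its 95% interval for the 10 members (above the grey line) and 4 other BCL2 family genes (below it), coloured by role, with dotted lines at −1 and 1. The intervals of BCL2L1, BCL2L11 and BIK include 0, PMAIP1 and BCL2 have the widest intervals, and BCL2 (open circle) is from the fit with no filter on low counts.

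All the called differences were larger than the spread between the libraries of a group. The 2 VIRMA-overexpressing libraries differed from each other by 0.017 on the log2 scale for BAK1 and by 0.243 for PMAIP1, and the 2 control libraries by 0.014 and 0.580. For BCL2L11 and BCL2L1 the control libraries differed by more (0.164 and 0.122) than the group means did (0.114 and 0.017). The groups did not overlap, in CPM, for 3 tested members that were higher and 4 that were lower in both VIRMA-overexpressing libraries. Over all tested genes this held for 42.7% and 41.6%, or 84.3% together.

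Summed by role, RNA for the anti-apoptotic members increased against that for the effectors. The summed level per length of the anti-apoptotic members was 79.7 and 79.4 RPKM in the eGFP control and 98.6 and 97.1 RPKM in the VIRMA-overexpressing libraries. That of the effectors was 63.9 and 63.4 RPKM against 50.4 and 49.4 RPKM. The BH3-only sum was 50.1 and 45.3 RPKM against 44.4 and 42.9 RPKM. The first pair of sums moved apart by far more than the libraries of a group differed, whereas the control libraries of the BH3-only sum differed from each other by more than the lower of them differed from the higher VIRMA-overexpressing one. These sums are descriptions, with no test, and each is carried by its most abundant gene. The BH3-only sum leaves out the relatives BIK and BMF. BIK was at 13.6 and 13.6 RPKM in the control and 13.7 and 14.5 RPKM in the VIRMA-overexpressing libraries. For BMF the values were 4.24 and 3.75 RPKM against 6.33 and 6.03 RPKM. With both in the sum, the BH3-only sums of the groups in RPKM would overlap. The sum over all members was 193.8 and 188.1 RPKM in the control and 193.5 and 189.4 RPKM in the VIRMA-overexpressing libraries.

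**Figure D3:**
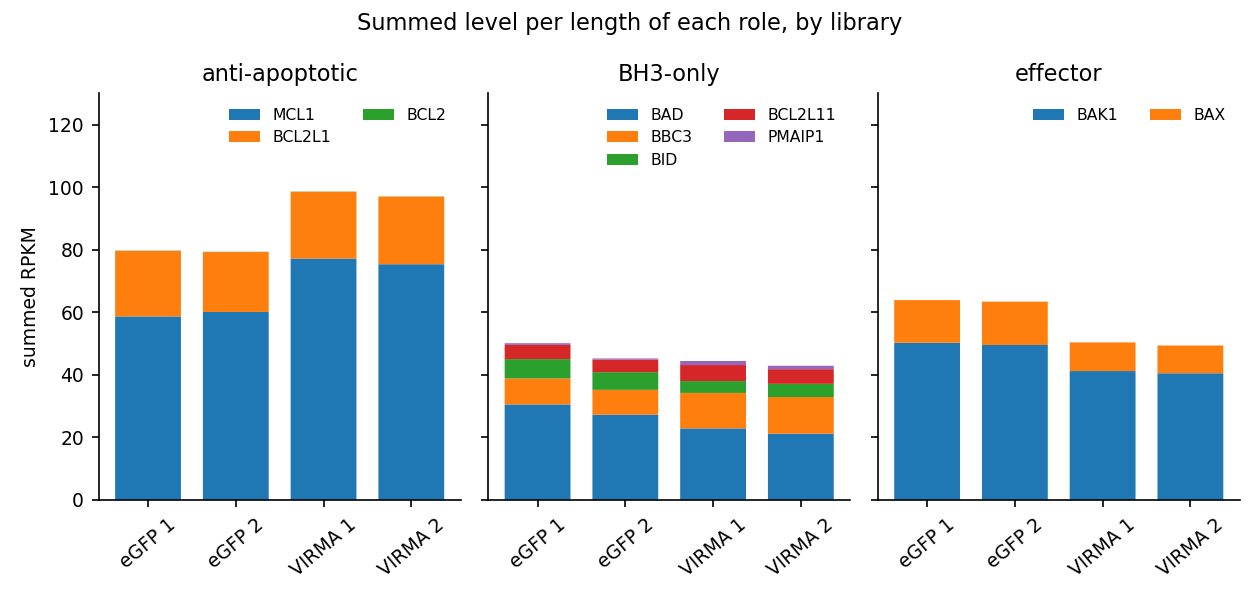
Summed level per length (RPKM, axis from 0) of the anti-apoptotic, BH3-only and effector members in each of the 4 libraries, stacked by gene. MCL1 makes most of the first sum and its growth, BAD is the largest BH3-only share and shrinks while BBC3 grows, and BAK1 makes most of the effector sum.

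RPKM uses library totals. With the TMM scaling of the fit the ratio of the VIRMA-overexpressing to the control sum changed from 1.23 to 1.16 for the anti-apoptotic members, from 0.916 to 0.864 for the BH3-only members, from 0.784 to 0.740 for the effectors and from 1.00 to 0.946 for all members. Ratios within a library do not depend on the scaling, but ratios between genes or sums depend on the exonic length used for each gene. The anti-apoptotic sum was 1.25 and 1.25 times the effector sum in the control libraries and 1.96 and 1.96 times in the VIRMA-overexpressing ones. MCL1 was 4.31 and 4.34 times as abundant as BAX in the control and 8.42 and 8.49 times in the VIRMA-overexpressing libraries. PMAIP1 stood at 0.928 and 0.603 per 100 MCL1 in the control and at 1.68 and 1.44 in the VIRMA-overexpressing libraries, so NOXA RNA remained rare beside the RNA of its partner. BAD gave 60.9% and 60.3% of the BH3-only sum in the control libraries and 51.5% and 49.4% in the VIRMA-overexpressing ones. With BIK and BMF in the sum, the shares of BAD would be smaller in both groups. Without BAD and BID, the 3 remaining BH3-only members summed to 13.4 and 12.3 RPKM in the control and 17.8 and 17.5 RPKM in the VIRMA-overexpressing libraries. BAD and BID are the BH3-only members that fell, so the higher sum follows from leaving them out and is no separate result.

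Against the distribution of all tested genes most members had ordinary fold changes. BBC3 stood higher than 78.0% of the tested genes and MCL1 than 69.8%. PMAIP1 stood higher than 97.8%, among genes it had joined only through its high group. BAX stood higher than 7.96%, BID than 9.25%, BAD than 15.4% and BAK1 than 21.0%. BCL2L1 was close to the middle, above 50.3% of the tested genes.

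**Figure D4:**
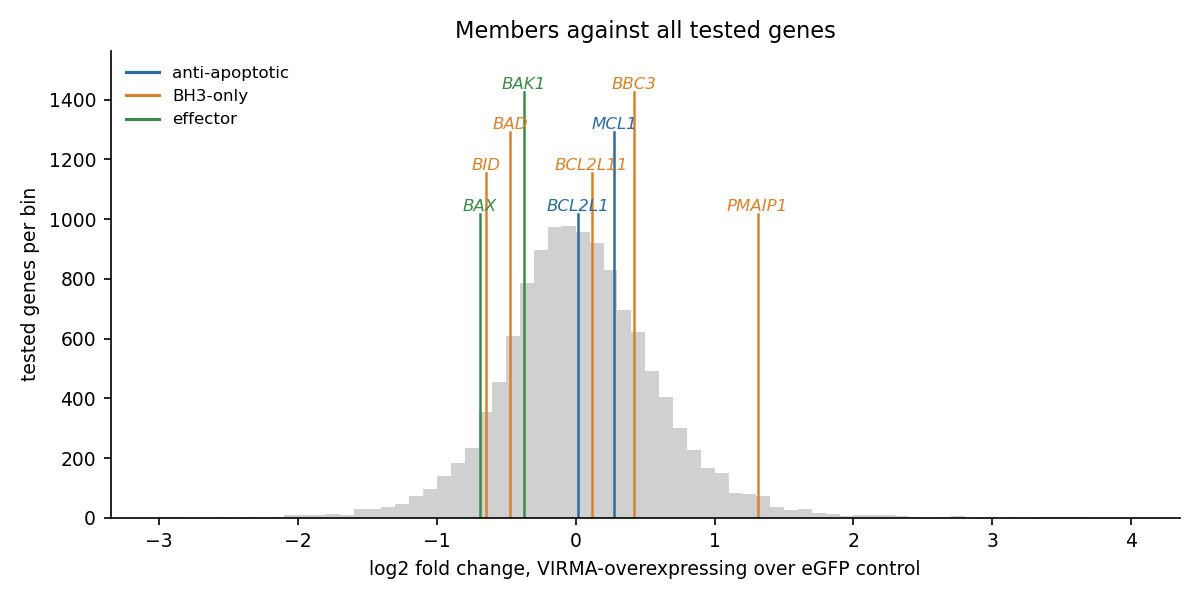
Number of tested genes per bin of 0.1 in log2 fold change (grey), with lines at the values of the 9 tested members coloured by role. PMAIP1 lies in the upper tail and the other 8 lie within the bulk, from BAX at −0.69 to BBC3 at 0.42, while 4 genes below −3 and 11 above 4 are beyond the bars.

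The relatives of these genes also went both ways. Of 16 other BCL2 family genes, 11 were tested, of which 5 rose, 2 fell and 4 did not pass the test, beside 35.1% of all tested genes higher and 35.9% lower. BCL2L2 encodes BCL-w, another anti-apoptotic protein. Its counts were 2704 and 2821 in the control and 4384 and 4351 in the VIRMA-overexpressing libraries, a log2 fold change of 0.64 ± 0.049 (SE) with an adjusted p of 5.0e-14. The read-through gene BCL2L2-PABPN1, which covers it, held 63 to 123 counts per library, and reads of both genes cannot be told apart in shared exons. The anti-apoptotic BCL2A1 had 1 to 6 counts per library and BCL2L10 had 0 in all. BOK, an effector relative, fell by 0.49 on the log2 scale (2612 and 2527 counts against 1947 and 1771, adjusted p = 1.5e-08).

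Among BH3-only relatives, BMF, which is released from the cytoskeleton under stress, rose by 0.55 ± 0.064 on the log2 scale (SE), with 1972 and 1764 counts against 2860 and 2677 (adjusted p = 1.8e-09). BIK, a BH3-only protein of the endoplasmic reticulum, had 1107 and 1118 counts against 1079 and 1124, with a log2 fold change of −0.03 (adjusted p = 0.73) whose sign turned under other scalings. HRK had 0 to 4 counts per library. Outside the BH3-only relatives, BCL2L12 fell the most of the 11 tested other BCL2 family genes. Its fall was 1.07 on the log2 scale (4626 and 4696 counts against 2285 and 2228, adjusted p = 4.5e-20).

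Downstream of the pores lie the genes of the apoptosome and caspase list. Of 12 genes 11 were tested, of which 8 fell and 1 rose, beside 35.9% and 35.1% of all tested genes. The median log2 fold change was −0.48, against 0.01 over all tested genes. Endonuclease ENDOG fell by 0.82 (1654 and 1533 counts against 951 and 875) and the executioner caspase CASP6 by 0.74 (1544 and 1456 against 959 and 865) on the log2 scale. The gene that rose, the initiator caspase CASP9, had 286 and 364 counts against 620 and 653, and it passed the filter only through the VIRMA-overexpressing libraries (1.42 and 1.52 RPKM against 0.64 and 0.80). In the fit with no filter on low counts its log2 fold change was 0.92 ± 0.13 (SE), with an adjusted p of 5.5e-11, beside 14.4% of the genes of that fit called higher.

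Of 8 inhibitors of apoptosis and their antagonists 5 were tested, of which 3 rose and 2 fell, beside 35.1% and 35.9% of all tested genes. BIRC5 encodes survivin, which also serves in cell division. It fell by 1.28 on the log2 scale, with 9269 and 9678 counts against 3774 and 4148 (adjusted p = 8.3e-24). The other four were named after their values were seen. XIAP, the direct caspase inhibitor, rose by 0.72, BIRC2, which encodes the ubiquitin ligase cIAP1, by 0.90 and BIRC6 by 0.20, and HTRA2, an antagonist released from mitochondria, fell by 0.48, all log2 fold changes.

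The factors that act on BH3-only and other family genes included the largest differences of these lists. Of 18 genes 16 were tested, of which 7 rose and 6 fell, close to the 35.1% and 35.9% of all tested genes. DDIT3 encodes CHOP, a stress factor known to act on BH3-only genes. It had 994 and 1036 counts in the control and 11635 and 11364 in the VIRMA-overexpressing libraries, a log2 fold change of 3.48 ± 0.046 (SE) with an adjusted p of 3.2e-36. ATF3, another stress-induced factor, rose by 1.37 and TRIB3, a pseudokinase induced by CHOP, by 1.33 on the log2 scale. ATF4, which lies upstream of these and is known to act on PMAIP1, rose by 0.73 ± 0.028 (SE), with 38928 and 40156 counts against 66617 and 66829 (adjusted p = 1.5e-22). E2F1, a cell cycle factor, fell by 1.69, with 5137 and 5012 counts against 1595 and 1584 (adjusted p = 2.4e-25).

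Of 28 kinases, ligases and binding proteins of the family 26 were tested, of which 4 rose and 18 fell, beside 35.1% and 35.9% of all tested genes. All 7 genes of the 14-3-3 proteins, which hold phosphorylated BAD in the cytosol, were among those that fell. These 7 were part of the list of 28 and were not planned as a group of their own. SFN (14-3-3 sigma) fell by 2.18, with 6782 and 6493 counts against 1499 and 1478, and YWHAH by 1.13, with 6760 and 7113 counts against 3220 and 3221, both on the log2 scale. Of 14 membrane partners 12 were tested, of which 3 rose and 7 fell, beside the same shares of all tested genes (35.1% and 35.9%). MTCH2, the mitochondrial receptor of BID, fell by 0.60, and the channels VDAC3 and VDAC1 by 0.58 and 0.49 on the log2 scale. Over the 81 tested genes of these 6 lists 23 rose and 43 fell, beside 35.1% and 35.9% of all tested genes, and their median log2 fold change was −0.12, against 0.01 over all of them.

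**Figure D5:**
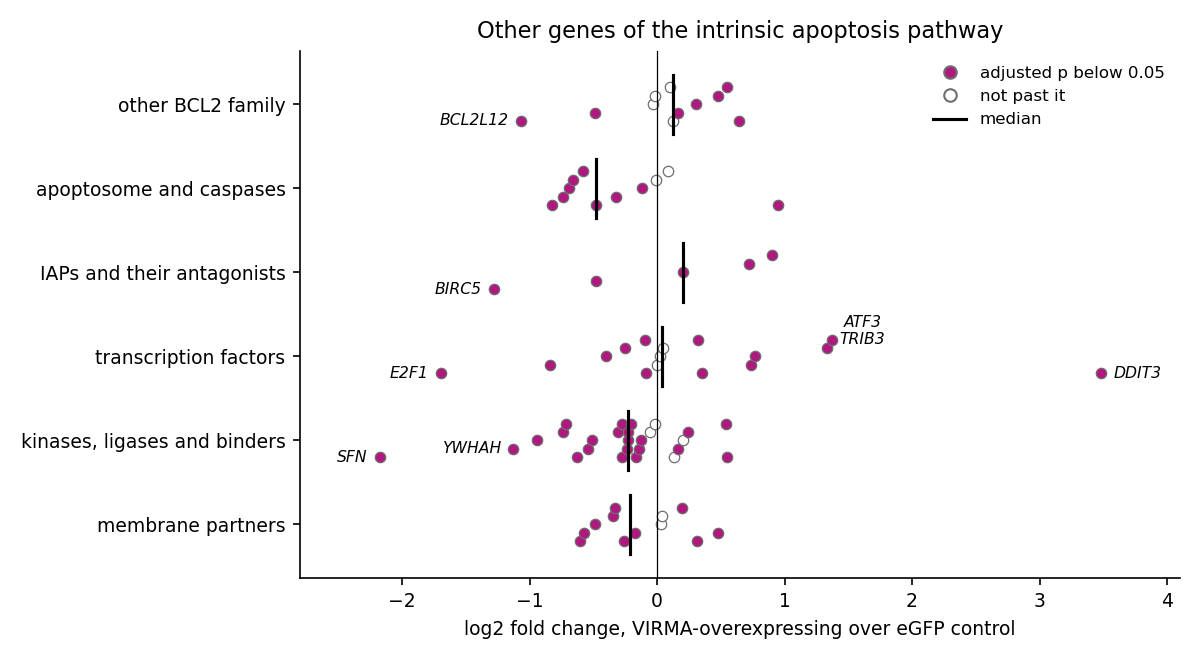
Log2 fold change of VIRMA-overexpressing over eGFP control cells for the 81 tested genes of the 6 other lists (1 point per gene, filled when the adjusted p was below 0.05), with a black line at each median. The apoptosome and caspase list lies mostly below 0, and the transcription factors spread from E2F1 at −1.69 to DDIT3 at 3.48.

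Promoters were examined because several of the factors above are known to act on members. RefSeq (GRCh38.p14) windows of 250 bases before to 50 after the start were held for 9 of the 10 members, all but MCL1, and for 35116 promoters in all. Motifs were searched on both strands. A member was said to hold a motif when any of its windows did, while the shares given are over single windows. Members such as BAD and BID have several windows, so the 2 measures are not alike. The composite CHOP-ATF site, TGATGNAAT, was in none of the members and in 0.991% of all windows, and the full CRE, TGACGTCA, was in none of them and in 1.85%. The core of the CRE, TGACG, was in BCL2, BCL2L1, PMAIP1, BAD and BAX and in 24.6% of all windows, and PMAIP1, which rose, and BAD and BAX, which fell, all held it. The FOXO site, GTAAACA, was in BCL2L11 and in 3.42% of all windows. The E-box, CACGTG, was in BBC3, BID and BAX and in 7.26% of all windows, and BAX held it at 4 places, the first of which shares its last bases with a CRE core. The CRE core of PMAIP1 and an E-box each of BBC3, BID and BAX are shown, with the motif in capitals, since these genes moved in unlike directions.
PMAIP1, chr18:59899931-59899960, plus strand: agtttccctaCGTCAccagggaagttctca
BBC3, chr19:47232880-47232909, minus strand: ggggagatttCACGTGagatatagattacc
BID, chr22:17774070-17774099, minus strand: gtgtcctctcCACGTGgcctggggattcag
BAX, chr19:48954772-48954801, plus strand: caggtgcggtCACGTGacccggcggcgctg
A match is a description of the letters, not a site in use, and no match says nothing of the factor.

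Because VIRMA belongs to the m6A writer complex, the commonest form of the m6A motif, GGACT, was counted in the canonical transcripts of the members. It is a count of letters, chosen after the values were seen, and methylation was not measured here. The members' median was 2.22 per kilobase, and over 9501 tested protein-coding transcripts the median was 0.936 with quartiles of 0.569 and 1.40. BBC3 was the densest, with 7 in 1846 bases or 3.79 per kilobase, above 99.5% of the tested transcripts. BAX, BCL2L1, BAK1, BID and BAD lay between 2.15 and 2.52 per kilobase. MCL1 held 1.77, BCL2L11 1.18, PMAIP1 1.05 and BCL2 0.436 per kilobase. The 3 members that rose and the 4 that fell all lay above the median of the tested transcripts, and BCL2L1, which did not pass the test, was as dense as BAX and BAK1. BAX, BAD and PMAIP1 held only 2 matches each, in 795, 929 and 1899 bases, so a single match changes their densities greatly. PMAIP1 lay near the median, above 56.9% of the tested transcripts. For BAX the canonical transcript is much shorter than the exonic length of 2587 bases.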

How the data were processed

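Per the labels and the study's methods, poly-A RNA of SKBR3 cells was sequenced as stranded paired-end libraries, in biological duplicates. The submitters' processing notes name FastQC, Trimmomatic 0.39, STAR 2.5.2a, featureCounts and the build hg38, and the authors deposited raw read counts per gene with the exonic length; the strand setting of the counting was not given in the sources used here. Columns of the control name it, while those of the other group bear a code in place of VIRMA and were assigned to it as the remaining group with their replicate number. No per-sample column was left out.

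Counts were tested in edgeR 4.0.16 (R 4.3.3) with the quasi-likelihood test, TMM scaling and group alone, on genes above 1 RPKM in at least 2 of the 4 libraries, with Benjamini-Hochberg adjustment over all 12205 tested genes. The biological coefficient of variation was 3.93%. An exact permutation test of 2 against 2 libraries cannot go below p = 0.33, so the fit borrows its estimate of the spread from all genes. Tested on simulated data for this comparison with 12205 genes, it recovered 89% of genes changed 1.5-fold and 98% of those changed 2-fold, with 8 false calls. The simulated data had 100 genes changed at each fold, up and down alike, and the same spread for all genes. In the real data 71% of the tested genes were called, so the simulation does not measure the false calls there. RPKM used the deposited exonic length and library totals. Other genes were named when called at 0.05 with more than a 2-fold difference, at most 5 per list and direction, or else the 3 largest called; close relatives, DDIT3 and ATF4 were named always, and 1 gene that the rule names is not reported here. Exons of 5 members overlap those of other rows, by at most 1424 bases (BCL2L1 with ABALON). The members and lists were chosen with earlier results of these data known. BH3 cores were searched in coding bases of GENCODE release 44 in place of proteins.

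Alternatives were DESeq2 1.42.0, limma-voom 3.58.1, other scalings, other filters, the replicate number as a block, and each library left out.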

Additional observations from a re-analysis of the deposited data

How the results depend on the processing

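With 2 libraries a group and values per gene only, isoforms, strand and the rate of transcription were out of reach, and PMAIP1 and BCL2 are limited by their counts. MCL1, BBC3, PMAIP1, BID, BAD, BAX and BAK1 kept their direction and passed the threshold under every alternative scaling, filter and test and with each library left out. BCL2L1 turned to −0.027 with filterByExpr, −0.017 with no filter, −0.013 with a minimum of 10 counts per library, and it ran from −0.043 to 0.075 when each library was left out in turn (the lowest without eGFP control replicate 2). BIK turned to 0.037 with upper-quartile factors, 0.051 with library totals, and ran from −0.082 to 0.012 over the same omissions (the highest without VIRMA-overexpressing replicate 1). Library totals raised the members called higher from 3 to 5, upper-quartile factors to 4, and these scalings moved the median of all genes by 0.086 and 0.072 on the log2 scale. BCL2L11 passed the threshold when scaled by upper quartiles (0.186) or library totals (0.200), and without eGFP control replicate 1 (0.194) or VIRMA-overexpressing replicate 2 (0.172), and each of these omissions gave 4 members higher. With a log2 fold change threshold added, 1 member was higher and 0 lower, 3 and 5 of the other pathway genes, and 552 and 358 of all genes, since it asks for more. Both thresholds together gave 1044 higher and 808 lower genes under filterByExpr, 1137 higher and 820 lower unfiltered, and 930 higher and 689 lower at the minimum of 10 counts per library, where more genes were tested. Scaling the summed levels by TMM was added after the data were seen. Replicate numbers did not pair the libraries (correlation of deviations 0.030), and with the replicate number as a block 3 members were higher and 4 lower, as without it.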
